A study of Mus musculus with 31 samples.

Results

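The serpins are a superfamily of proteins named after serine protease inhibitors, and the array held 35 probes for 32 of their genes. A probe belonged to the family where its annotation named a single gene whose symbol was Serpin followed by a clade letter and a number, a rule that reads symbols and no measured value. Probes with a single gene stood for 15095 genes in all. The RefSeq table of assembly GRCm38.p6 lists 63 protein-coding mouse symbols of this form, and the 31 symbols without a probe, among them all of clade E and the Serpina3 paralogues other than Serpina3n, were not analysed here. Clade A had 11 probes for 11 genes, all on chromosome 12, and clade B had 15 probes for 13 genes, 9 of the probes on chromosome 1 and 6 on chromosome 13. The other 9 probes were for Serpinc1, Serpind1, Serpinf1, Serpinf2, Serping1, Serpinh1, with 2 probes, Serpini1 and Serpini2.

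An inhibitory serpin presents an exposed loop as bait. The protease that cuts this loop stays bound to it by a covalent bond, and the loop folds into the body of the serpin and distorts the protease, which ends its activity. Hepatocytes secrete many serpins of the blood plasma, among them alpha-1-antitrypsin, antithrombin and C1 inhibitor, while most clade B serpins act inside cells, and a few serpins carry hormones or assist protein folding instead.

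The samples were whole livers of male mice aged 8 weeks from 31 BXD/TyJ strains, recombinant inbred lines bred from a cross of C57BL/6J with DBA/2J. Each strain gave 1 array and 1 RNA pool of 3 mice labelled with Alexa Fluor 647, which was set against a pool of 9 male C57BL/6J livers of the same age labelled with Alexa Fluor 555. The labels describe no swap of dyes and no treatment. Values are log ratios, read as log2 of strain over C57BL/6J, which is the likely direction. Neither the log base nor the direction is given in the sources used here, and with the ratio the other way round the sign of every ratio and mean would turn, but of no correlation, so that Serpinc1 would have the lowest mean and Serpinf1 the highest. A value of 1 then means a doubling over C57BL/6J, and a "panel mean" is the mean over the 31 strains ± SE. The spread between strains holds the spread between arrays too, because no strain had a second array.

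Some facts of the arrays touch all results. The arrays of strains 23, 28, 40 and 42 had a median correlation with the other arrays of 0.24, 0.37, 0.06 and 0.33, against 0.57 for strain 38 and 0.67 to 0.79 for the other 26. Probes at every 8th place of the array, counted by their identifiers, had a median panel mean of -0.58, against 0.04 at the other places. The median of these places on an array was between -0.72 and -0.50 in 27 strains, and it was -0.06, -0.24, 0.01 and -0.20 in strains 23, 28, 40 and 42. Serpina1d, Serpinb5, Serpinb9c, Serpinb9e, Serpinf1 and Serpini2 lie at such places. Results that rest on these arrays or places are therefore given with and without the 4 strains, and with the median of its place subtracted from each value ("after place correction"). A ratio gives no level, so whether hepatocyte markers were present could not be checked, and less of a transcript per cell cannot be told apart from fewer cells of a type.

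Serpina1a to Serpina1e had closely similar upstream sequence. These 5 Serpina1 paralogues encode mouse forms of alpha-1-antitrypsin, a plasma inhibitor of neutrophil elastase that humans make from a single gene. In the following windows of 96 bases, from RefSeq's GRCm38.p6, capitals mark GTTAAT, a half-site of the palindromic motif bound by the hepatocyte nuclear factor HNF1. Each window runs from 80 bases before this motif to its 16th base and ends before the annotated start. They lie on the minus strand at chr12:103863625-103863720 (Serpina1a), chr12:103738200-103738295 (Serpina1b), chr12:103904962-103905057 (Serpina1c), chr12:103773634-103773729 (Serpina1d) and chr12:103956960-103957055 (Serpina1e). For Serpina1f the window is the last 96 bases before the start, chr12:103695530-103695625, which does not hold these letters.
Serpina1a: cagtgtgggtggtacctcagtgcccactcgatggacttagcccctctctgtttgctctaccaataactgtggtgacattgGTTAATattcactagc
Serpina1b: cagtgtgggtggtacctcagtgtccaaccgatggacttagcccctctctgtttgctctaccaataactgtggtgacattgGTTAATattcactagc
Serpina1c: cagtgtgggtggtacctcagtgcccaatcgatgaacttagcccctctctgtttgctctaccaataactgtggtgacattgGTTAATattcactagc
Serpina1d: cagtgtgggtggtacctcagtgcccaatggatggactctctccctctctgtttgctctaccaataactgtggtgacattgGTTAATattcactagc
Serpina1e: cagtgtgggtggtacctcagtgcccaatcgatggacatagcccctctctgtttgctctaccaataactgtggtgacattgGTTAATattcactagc
Serpina1f: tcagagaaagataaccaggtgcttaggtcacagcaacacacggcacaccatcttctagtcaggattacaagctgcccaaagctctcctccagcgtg
Serpina1a to Serpina1e were identical at 92.7% to 97.9% of these bases, and Serpina1f shared 24.0% to 26.0% of them with any of the 5. Bases were compared by position without alignment, and the Serpina1f window was placed by the start and not by the motif. Its percentages therefore cannot tell how similar its upstream sequence is to theirs. The letters GTTAAT, sought on both strands from 250 bases before to 50 after the start, were found for 7 of the 28 serpin genes in the promoter table and for 8.24% of all 27025 genes in it. The 7 were Serpina1a to Serpina1e, Serpinb8 and Serpini2. The match of letters is a description and no sign of binding.

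In the mean over strains the family as a whole was close to the rest of the array. Of the 35 probes, 14 were higher and 10 lower than C57BL/6J, and 11 did not pass (limma's test of the mean against 0, two-sided, Benjamini-Hochberg adjusted p under 0.05 over 21765 probes). Of all probes 37.4% were higher and 37.6% lower, so the serpins' 40.0% higher was near the background and their 28.6% lower was below it. This test leaves out the spread of the C57BL/6J pool itself, and any effect of the dyes enters the mean of a probe. Without the 4 strains 18 serpin probes (51.4%) were higher and 10 (28.6%) lower, beside 39.9% and 38.2% of all probes. After place correction 18 (51.4%) were higher and 8 (22.9%) lower, beside 37.0% and 36.9% of all probes. Under both changes 20 (57.1%) were higher and 8 (22.9%) lower, beside 39.2% and 37.7% of all probes. Asked for a mean beyond 0.2 in size, limma's treat test called 7 higher and 5 lower, beside 14.6% and 18.6% of all probes.

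The spread of the serpins between strains exceeded that of the array at large. The median SD over strains was 0.34 for the serpins and 0.24 for all probes, and 0.53 for the 13 serpins secreted by the liver, against 0.29 for the other 22 probes. Without the 4 strains these medians were 0.25 for the serpins, 0.20 for all probes, 0.32 for the liver-secreted and 0.22 for the other serpins. A spread above that of all probes was not particular to the serpins. The median SD was 0.48 for 12 hepatocyte marker probes and 0.31 for 28 probes of target proteases and cofactors. It was 0.27 for 25 probes of regulators and secretion factors. Without the 4 strains these 3 medians were 0.40, 0.27 and 0.24. Counted as the 13 liver-secreted serpins were the Serpina1 paralogues, Serpina3n, Serpina6, Serpinc1, Serpind1, Serpinf1, Serpinf2 and Serping1. Serpina1f was counted by its name, and whether the liver secretes it was not checked. Of these 13, 5 were higher and 2 lower, with a median panel mean of 0.22, against 9 higher and 8 lower of the other 22, with a median of -0.02. These counts stood beside 37.4% higher and 37.6% lower of all probes, and no test was made of the differences between the lists.

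**Figure D1:**
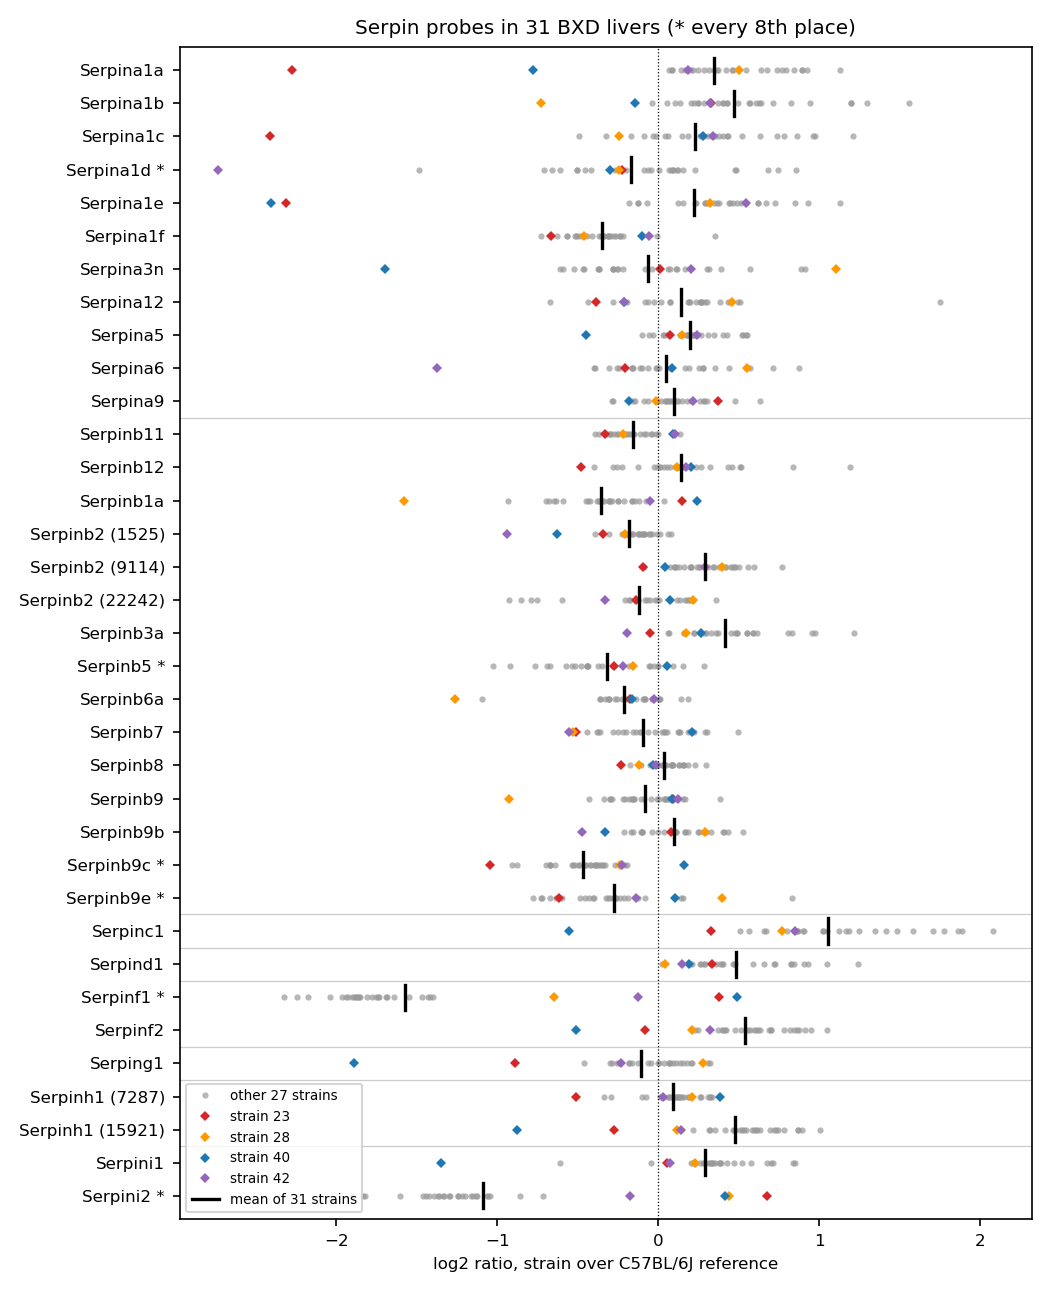
Log2 ratio of strain over C57BL/6J for the 35 serpin probes in 31 strains. Each row is a probe and each point a strain, with strains 23, 28, 40 and 42 as coloured diamonds and the panel mean as a black bar. Lines part the clades, numbers tell probes of 1 gene apart and asterisks mark every 8th place. Serpinc1 stands furthest to the right with a mean of 1.06 and Serpinf1 furthest to the left with a mean of -1.57.

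Serpina1a, Serpina1b and Serpina1f were the Serpina1 paralogues that passed the test of the mean. Serpina1b had a lowest ratio of -0.73 in strain 28, a median of 0.40 and a highest of 1.56 in strain 29. It was above C57BL/6J in 28 of 31 strains, and its mean of 0.47 ± 0.08, or 1.38-fold, was higher (limma adjusted p = 2.02e-06). Serpina1a ran from -2.27 in strain 23 over a median of 0.37 to 1.13 in strain 9. Only strains 23 and 40 were below 0, and the mean of 0.35 ± 0.10 was higher (limma adjusted p = 0.00303). Without strains 23, 28, 40 and 42 the mean of Serpina1a was 0.49, and all 27 strains were above 0.

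Serpina1c, Serpina1d and Serpina1e missed the threshold over 31 strains. Serpina1c ran from -2.41 in strain 23 over a median of 0.31 to 1.21 in strain 18, and its mean was 0.23 ± 0.11 (limma adjusted p = 0.0504). Serpina1e was at -2.41 in strain 40 and -2.31 in strain 23, with a median of 0.36, a highest value of 1.13 in strain 13 and a mean of 0.22 ± 0.13 (limma adjusted p = 0.114). Both passed without the 4 strains, where Serpina1c averaged 0.34 (limma adjusted p = 0.000119) and Serpina1e 0.40 (limma adjusted p = 3.72e-07). Serpina1d, at an every 8th place, ran from -2.73 in strain 42 over a median of -0.06 to 0.86 in strain 13, with 14 strains above 0 and a mean of -0.17 ± 0.11 (limma adjusted p = 0.174). After place correction its mean was 0.40 and passed as higher (limma adjusted p = 0.00548), so the direction of Serpina1d was not settled.

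The far-off values of the paralogues lay in different strains. In strain 23 Serpina1a, Serpina1c and Serpina1e were at -2.27, -2.41 and -2.31, while Serpina1b was at 0.33 and Serpina1d at -0.22. In strain 40 Serpina1e was at -2.41 and Serpina1a at -0.78, and Serpina1c was at 0.28. Strain 42 was low for Serpina1d alone, at -2.73, with the other 4 of Serpina1a to Serpina1e between 0.19 and 0.55. A low value on 1 of these arrays was thus not shared by all 5 paralogues. The sequences of the probes were not used here, so how far each probe tells these similar paralogues apart is uncertain.

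Serpina1f differed from the other paralogues. It was below 0 in 30 of 31 strains, with a lowest ratio of -0.73 in strain 13, a median of -0.34 and a highest of 0.35 in strain 31. Its mean of -0.35 ± 0.04, or 0.785-fold, was lower (limma adjusted p = 6.15e-10). Its SD of 0.21 was the smallest among the serpins counted as liver-secreted over 31 strains, against 0.46 to 0.75 for Serpina1a to Serpina1e. Over the 27 strains without the 4, its SD was 0.205, against 0.202 for Serping1 and 0.30 to 0.51 for Serpina1a to Serpina1e.

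**Figure D2:**
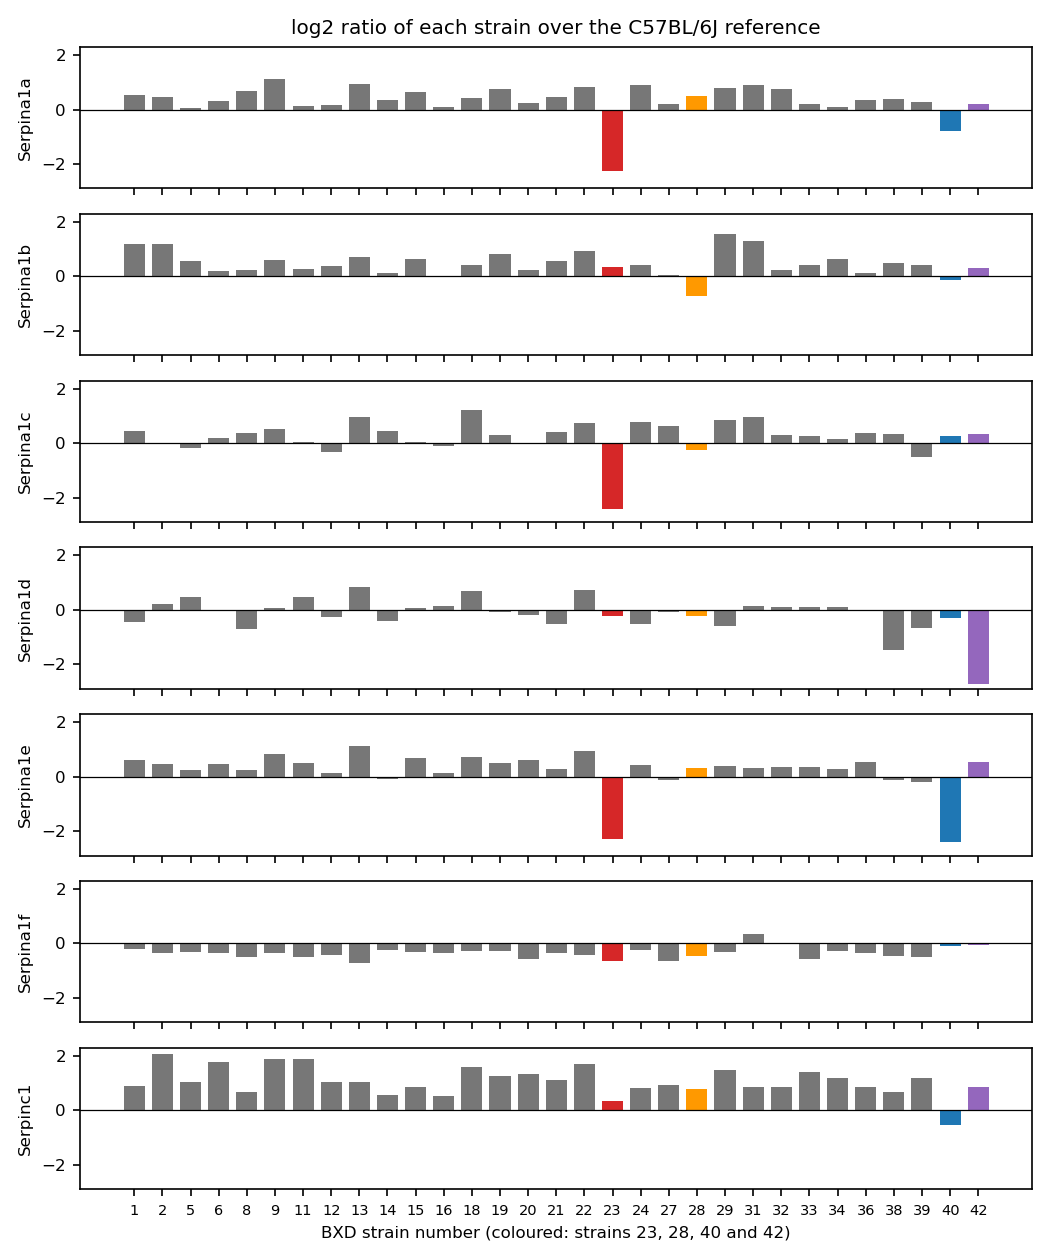
Log2 ratio of each BXD strain over C57BL/6J for Serpina1a to Serpina1f and Serpinc1, as bars from 0 in order of strain number, with strains 23, 28, 40 and 42 coloured. The lowest bar is strain 23 for Serpina1a and Serpina1c, strain 42 for Serpina1d and strain 40 for Serpina1e and Serpinc1, while Serpina1f stays between -0.73 and 0.35.

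Serpinc1, which encodes antithrombin, the heparin-activated inhibitor of thrombin and factor Xa, had the highest mean of the family. It ran from -0.55 in strain 40 over a median of 1.02 to 2.08 in strain 2. The next lowest strain was strain 23 at 0.33 and the next highest strain 11 at 1.89. Strains were above C57BL/6J in 30 of 31 cases, and the mean of 1.06 ± 0.09, or 2.08-fold, was higher (limma adjusted p = 1.26e-12). Over the other 27 strains the mean was 1.16 and all were above 0, from 0.51 in strain 16. Its SD of 0.53 was larger than that of 94.0% of all probes, and 0.43 without the 4 strains.

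Among the other clade A members, Serpina5 and Serpina9 were higher and the rest did not pass. Serpina3n, the mouse counterpart of alpha-1-antichymotrypsin that rises in the acute-phase response, ran from -1.69 in strain 40 over a median of -0.08 to 1.11 in strain 28. Its mean of -0.06 ± 0.09 did not pass (limma adjusted p = 0.546), with 14 strains above 0. It thus had a wide spread, an SD of 0.54, about a mean near 0, and without the 4 strains the values still ran from -0.61 in strain 6 to 0.91 in strain 18. Serpina5, the protein C inhibitor, ran from -0.45 in strain 40 over 0.19 to 0.55 in strain 32, with a mean of 0.20 ± 0.04 (limma adjusted p = 2.34e-05). Serpina6, corticosteroid-binding globulin, which carries glucocorticoids and inhibits no protease, ran from -1.37 in strain 42 over 0.01 to 0.87 in strain 39 and averaged 0.05 ± 0.07 (limma adjusted p = 0.544). Serpina12, the adipokine vaspin, had a single high value of 1.75 in strain 2, the next being 0.51 in strain 18. Its lowest value was -0.67 in strain 38, its median 0.19 and its mean 0.14 ± 0.07 (limma adjusted p = 0.0789). It passed as higher in the 27 strains, at 0.17 (limma adjusted p = 0.0391), and after place correction, at 0.16 (limma adjusted p = 0.0468), whereas its mean was 0.09 without strain 2. Serpina9, known in humans from germinal centre B cells, averaged 0.10 ± 0.04 over a range of -0.28 to 0.63 (limma adjusted p = 0.0185), and this was 0.04 after place correction (limma adjusted p = 0.404).

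Clade B, the serpins that mostly lack a signal for secretion, had 4 probes higher, 7 lower and 4 not passed, beside 37.4% higher and 37.6% lower of all probes, and 7 higher and 5 lower after place correction. Serpinb3a, an orthologue of the human squamous cell carcinoma antigens, had the highest mean of the clade. It ran from -0.19 in strain 42 over 0.36 to 1.22 in strain 16, was above 0 in 29 of 31 strains and averaged 0.42 ± 0.05 (limma adjusted p = 2.28e-08). Serpinb9c, a paralogue of the granzyme B inhibitor Serpinb9, had the lowest mean, with values from -1.04 in strain 23 over -0.42 to 0.16 in strain 40 and a mean of -0.46 ± 0.04 (limma adjusted p = 7.65e-12). It lies at an every 8th place, as do Serpinb9e, with the largest SD of the clade at 0.35, and Serpinb5, the mouse maspin. Serpinb9e ran from -0.78 in strain 38 over -0.28 to 0.83 in strain 31, with a mean of -0.28 ± 0.06 (limma adjusted p = 0.000103), and Serpinb5 averaged -0.32 ± 0.05 (limma adjusted p = 3.4e-06). After place correction all 3 changed sign and passed as higher, with means of 0.11 for Serpinb9c, 0.30 for Serpinb9e and 0.26 for Serpinb5, so no direction can be given for them.

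The other lower members of clade B, away from these places, were Serpinb1a, Serpinb6a, Serpinb11 and 1 probe of Serpinb2. Serpinb1a, an inhibitor of neutrophil proteases, averaged -0.36 ± 0.06 (limma adjusted p = 1.73e-06), with 28 of 31 strains below 0 and a lowest value of -1.58 in strain 28. Serpinb6a averaged -0.21 ± 0.05, with values of -1.26 in strain 28 and -1.09 in strain 31 against -0.36 or above in the other 29. Serpinb11 averaged -0.16 ± 0.03. The 3 probes of Serpinb2, plasminogen activator inhibitor 2 of macrophages, disagreed, with means of 0.29 ± 0.04, -0.12 ± 0.06 and -0.18 ± 0.04, of which the first was higher, the second did not pass and the third was lower. Their correlations across strains were -0.01, -0.01 and 0.18 (adjusted p = 0.988, 0.993 and 0.610 by permutation), so no direction is given for Serpinb2. Serpinb12, at 0.14, and Serpinb9b, at 0.10, were higher, but the call was lost for Serpinb12 without strain 19, where the mean was 0.11, and after place correction, where it was 0.08 (limma adjusted p = 0.216), and for Serpinb9b without strain 34, where it was 0.08. Serpinb7, Serpinb8 and Serpinb9 did not pass, with means between -0.10 and 0.04. Serpinb8 passed as higher in the 27 strains and after place correction, at 0.06 in both (limma adjusted p = 0.0233 and 0.0291). Serpinb7 passed as lower without strain 14 and Serpinb9 without strain 38 (limma adjusted p = 0.0279 and 0.0320). Serpinb8 had the smallest SD of the family at 0.11, larger than that of 0.234% of all probes.

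Of the 9 probes in clades C to I, 6 were higher, 2 lower and 1 did not pass, beside 37.4% higher and 37.6% lower of all probes. Serpind1, heparin cofactor II, which inhibits thrombin, was the one probe of the family above 0 in 31 of 31 strains. It ran from 0.03 in strain 11 over 0.40 to 1.24 in strain 39 and averaged 0.48 ± 0.05 (limma adjusted p = 8.9e-10). Serpinf2, alpha-2-antiplasmin, the main inhibitor of plasmin, ran from -0.51 in strain 40 over 0.57 to 1.05 in strain 6 and averaged 0.54 ± 0.06 (limma adjusted p = 1.08e-10). Only strains 40 and 23 were below 0 for it.

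Serpinf1, which encodes the anti-angiogenic factor PEDF and inhibits no protease, had the lowest mean of the family. It ran from -2.32 in strain 34 over -1.78 to 0.49 in strain 40, and its mean of -1.57 ± 0.12, or 0.336-fold, was lower (limma adjusted p = 2.87e-14). The 4 strains 23, 28, 40 and 42 had the 4 highest values, 0.38, -0.64, 0.49 and -0.13, and the other 27 lay between -2.32 and -1.40. Serpini2, known from pancreas as pancpin, was split too, with 0.68, 0.44, 0.42 and -0.17 in these 4 strains and -1.90 to -0.71 in the other 27. Its mean was -1.09 ± 0.11 (limma adjusted p = 3.08e-11) with a median of -1.24. Both lie at an every 8th place, and after place correction both were still lower, Serpinf1 at -0.998 and Serpini2 at -0.51.

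**Figure D3:**
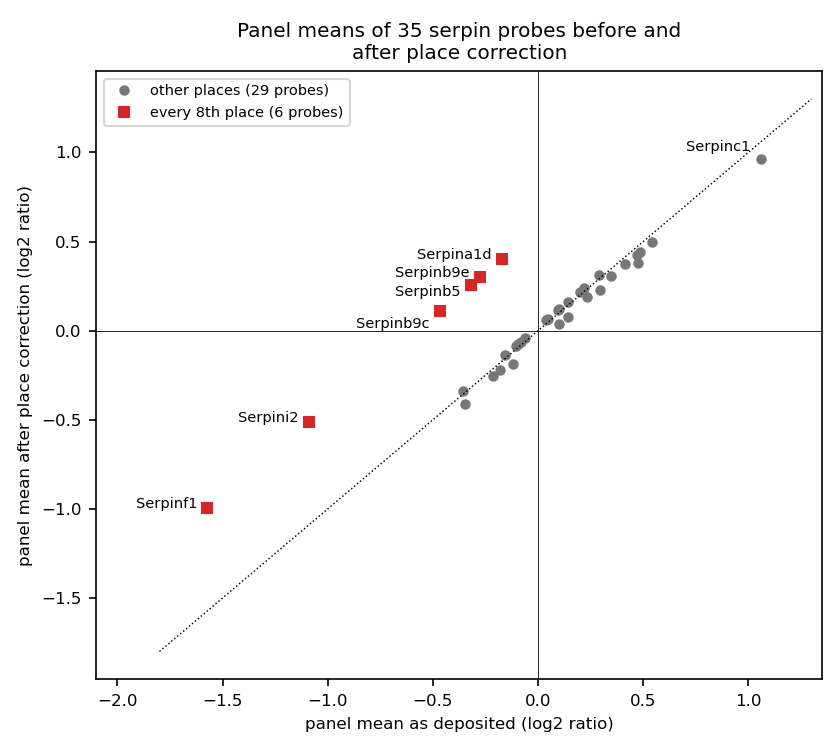
Panel mean of each of the 35 serpin probes as deposited (horizontal axis) and after the median of its place on the array was subtracted (vertical axis), both as log2 ratios, with the dotted line marking equal values. The 6 probes at every 8th place (red squares) lie above the line, and Serpina1d, Serpinb5, Serpinb9c and Serpinb9e cross from below 0 to above 0.

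Serping1, C1 inhibitor, which controls the complement proteases C1r and C1s and plasma kallikrein, ran from -1.89 in strain 40 over 0.00 to 0.32 in strain 13, with -0.89 in strain 23. Its mean of -0.11 ± 0.07 did not pass (limma adjusted p = 0.177) and was -0.02 without the 4 strains. Serpinh1, the collagen chaperone HSP47 of the endoplasmic reticulum, was higher by both probes, at 0.48 ± 0.06 (limma adjusted p = 3.42e-08) and 0.09 ± 0.04 (limma adjusted p = 0.0202). The first ran from -0.88 in strain 40 over 0.54 to 1.00 in strain 6, and the second from -0.51 in strain 23 over 0.12 to 0.39 in strain 40. Across strains the 2 probes had r = 0.16 (adjusted p = 0.637 by permutation), and strain 40 was the lowest for one and the highest for the other. Of 8 markers of stellate cells and fibroblasts, cells that make collagen, 3 were higher and 3 lower, beside 37.4% higher and 37.6% lower of all probes. Among these markers were Col1a1 at 0.26 and Col1a2 at -0.19. Serpini1, neuroserpin, which inhibits tissue plasminogen activator in brain, ran from -1.35 in strain 40 over 0.33 to 0.85 in strain 18 and averaged 0.29 ± 0.07 (limma adjusted p = 0.00038). Beside Serpini2, the 5 measured markers of exocrine pancreas split into 4 higher and 1 lower, against 37.4% and 37.6% of all probes. The higher ones were led by Prss1 at 0.85 and Ctrb1 at 0.72, and the lower one was Amy2 at -1.06. The part of other cells in these values was not tested.

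Taken strain by strain, the low extremes of the family gathered on the 4 arrays. Of the 35 probes, 25 had their lowest value in strain 23, 28, 40 or 42, and 6 had their highest there. For all probes these shares were 44.5% and 35.7%. Strain 40 held the lowest value of 8 serpin probes, strain 23 of 7, strain 42 of 6 and strain 28 of 4. Of the 13 liver-secreted serpins, strain 23 had 11 below their median over strains, strains 8 and 40 had 10, and strains 11, 16 and 39 had 9. Strains 12, 20, 28, 34, 36, 38 and 42 had 8, while strain 18 had 0 below and 12 above. The mean of Serpina1a to Serpina1e was highest in strain 13 at 0.92 and lowest in strains 23 and 40 at -1.38 and -0.67. The mean score of 12 hepatocyte markers was -0.32, -0.20, -0.44 and -0.18 in strains 23, 28, 40 and 42, against -0.38 to 0.45 in the 27 strains, so that strain 40 alone lay outside their range. The score of 9 Kupffer cell and macrophage probes was -0.47, 0.04, -0.56 and -0.26 on these 4 arrays, against -0.21 to 0.26 in the 27. For 7 endothelial probes it was -0.36, -0.14, -0.36 and -0.23, against -0.16 to 0.28. For 3 adipose probes it was 0.43, 0.81, 0.77 and 0.54, against -0.35 to 0.74. Of these 3, Adipoq lies at an every 8th place, with a mean of -1.63, or -1.87 without the 4 strains, and an SD of 0.77. The SD was 0.13 for Fabp4 and 0.25 for Lep. Ass1 among the hepatocyte probes and Clec4g among the endothelial probes lie at such places too. No place correction was applied to these scores. The part of these cell types in the serpin values was not tested.

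Co-variation across strains was examined for all 595 pairs of serpin probes, with two-sided p-values from 100000 permutations of the strain order, of which 1e-05 is the smallest they can give, adjusted over the 595 pairs. Over 31 strains 23 pairs passed, 15 with positive and 8 with negative r. Without strains 23, 28, 40 and 42 no pair passed, although 57 had an unadjusted p under 0.05. With Spearman's rho 2 pairs passed. At the smallest size of r that passed, 0.57, 24 serpin pairs (4.03%) lay at or above it and 13 (2.18%) at or below its negative, beside 1.81% and 1.51% of all 236846730 pairs of probes. Without the 4 strains these were 6 (1.01%) and 2 (0.336%), beside 0.66% and 0.564% of all pairs. After place correction over 31 strains 28 pairs passed, 20 with positive and 8 with negative r, and 22 of them had passed before it. By Spearman's rho 0 pairs passed after place correction. At or beyond the same size of r then lay 4.20% and 1.34% of serpin pairs, beside 1.54% and 1.31% of all pairs.

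Serpina1a to Serpina1e had the highest mean correlation among the groups examined. Their 10 pairs averaged r = 0.37 ± 0.06 (jackknife SE over strains) and 0.36 without the 4 strains. With Serpina1f added the mean was 0.29 and 0.30. It was 0.14 and 0.09 for clade A, 0.02 and 0.01 for clade B, and 0.03 and 0.02 for clades C to I. For the liver-secreted serpins it was 0.14 and 0.12, and 0.26 and 0.10 for those away from every 8th places. All pairs of probes averaged 0.0007 over 31 strains. Probe sequences were not used, so how far the probes of Serpina1a to Serpina1e tell these paralogues apart is uncertain. The strongest pair was Serpina1a with Serpina1e, with r = 0.85 (permutation p = 1e-05, adjusted 0.00198) and rho = 0.56 (permutation p = 0.00125, adjusted 0.138). Its r was 0.51 without strains 23 and 40, the 2 farthest from the median of Serpina1a, and 0.54 without all 4. Serpina1a with Serpina1c had r = 0.80 (permutation p = 0.00014, adjusted 0.00757) and rho = 0.64 (permutation p = 0.00016, adjusted 0.0476), and r was 0.52 without strains 18 and 23 and 0.61 without the 4. This pair passed by both measures over 31 strains, and missed the threshold without the 4 (adjusted p = 0.0773 by permutation).

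The other Serpina1 pairs did not pass. Serpina1c with Serpina1e had r = 0.60 (permutation p = 0.00817, adjusted 0.0948), 0.19 without strains 18 and 23, and 0.42 without the 4. Serpina1b had r of 0.29 to 0.33 with Serpina1a, Serpina1c and Serpina1e, and Serpina1d had 0.10 to 0.18 with the other 4. Without the 4 strains Serpina1d with Serpina1e had 0.62 (permutation p = 0.00064, adjusted 0.0773), and Serpina1a with Serpina1b had 0.49 (permutation p = 0.00821, adjusted 0.358). Serpina1f ranged from -0.16 with Serpina1d to 0.36 with Serpina1c. Set beside the upstream windows, Serpina1a, Serpina1c and Serpina1e, which were identical to each other at 97.9% of bases, had r of 0.60 to 0.85 among them. Serpina1b, at 96.9% with each of these 3, had 0.29 to 0.33, and Serpina1d, at 92.7% to 93.8% with the other 4, had 0.10 to 0.18. With the 4 strains left out, these ranges were 0.42 to 0.61, 0.32 to 0.49 and 0.04 to 0.62, so that they overlapped. No test was made of the order of r beside identity over so few paralogues.

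**Figure D4:**
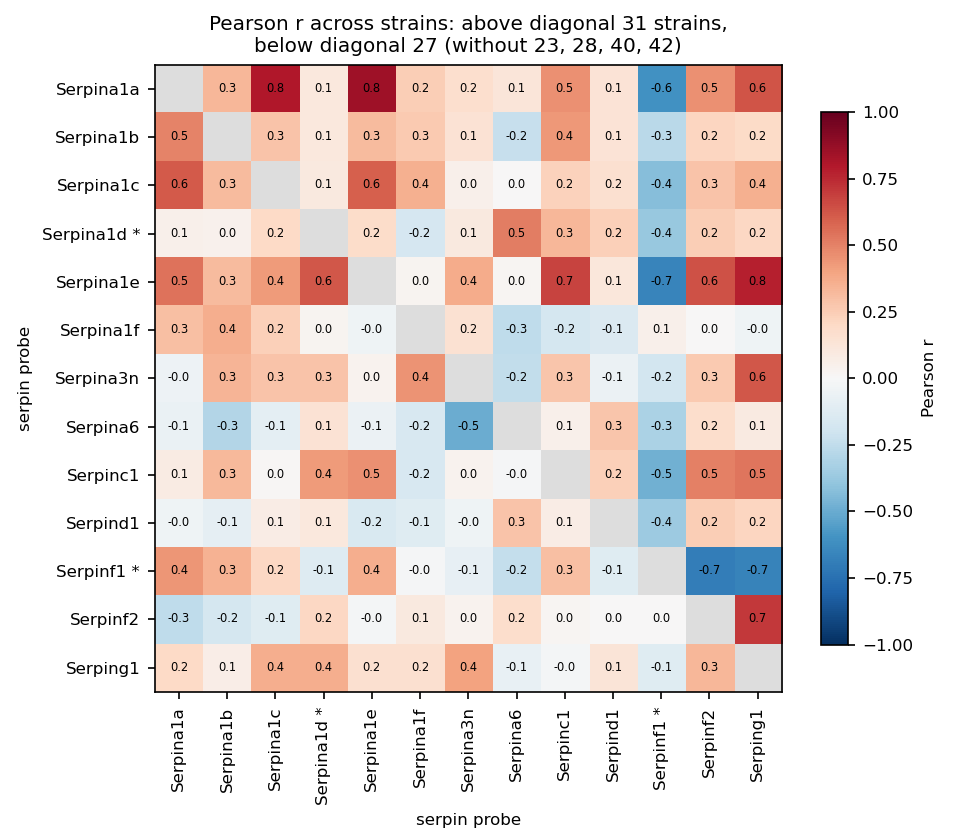
Pearson r between the 13 liver-secreted serpin probes across strains, over 31 strains above the diagonal and over 27 strains (without 23, 28, 40 and 42) below it, on a colour scale from -1 to 1 with r printed to 1 decimal. Asterisks mark every 8th place. The strong values of Serpinf1 and Serping1 above the diagonal have no counterpart of that size below it, while Serpina1a with Serpina1c has 0.80 above and 0.61 below.

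Serpinc1 passed with 2 partners over 31 strains. With Serpina1e it had r = 0.68 (permutation p = 4e-05, adjusted 0.0034) and rho = 0.53 (permutation p = 0.00262, adjusted 0.149), and r was 0.44 without strains 23 and 40 and 0.45 without the 4. With Serpini1 it had r = 0.58 (permutation p = 0.0017, adjusted 0.046) and rho = 0.33 (permutation p = 0.0716, adjusted 0.436), and r was 0.24 without strains 38 and 40 and 0.22 without the 4. Serpina3n, the acute-phase member, passed with Serping1, at r = 0.62 (permutation p = 0.00057, adjusted 0.0212) and rho = 0.43 (permutation p = 0.0166, adjusted 0.261), with 0.44 without strains 23 and 40 and 0.40 without the 4. Its r with the Serpina1 paralogues lay between 0.05 and 0.37 and did not pass.

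The remaining pairs with r of large size shared a few probes. Serping1 had r = 0.78 with Serpina1e, 0.78 with the first probe of Serpinh1, 0.76 with Serpini1 and 0.71 with Serpinf2 (adjusted p = 0.0191, 0.00595, 0.0212 and 0.00757 by permutation). Without the 4 strains these were 0.16, 0.41, 0.42 and 0.33. Serpinf2 with the same Serpinh1 probe had 0.78 over 31 strains (adjusted p = 0.00198 by permutation) and 0.36 without the 4, and the third probe of Serpinb2 with Serpinb9b had 0.65 (adjusted p = 0.00298 by permutation) and 0.43. The lowest r belonged to the first probe of Serpinh1 with Serpini2, at -0.83 (permutation p = 1e-05, adjusted 0.00198) with rho = -0.68 (permutation p = 5e-05, adjusted 0.0297), and it was -0.71 without strains 23 and 40 and -0.62 without the 4. Serpinf1 with Serpini2 had 0.84 (permutation p = 3e-05, adjusted 0.00298) with rho = 0.30 (permutation p = 0.0978, adjusted 0.481), 0.65 without strains 23 and 40 and 0.02 without the 4. Serpinf1 had r = -0.77 with the first Serpinh1 probe, -0.69 with Serpinf2, -0.68 with the third Serpinb2 probe and -0.67 with Serping1 (adjusted p = 0.00298, 0.00661, 0.0288 and 0.0309 by permutation), and these were -0.09, 0.0003, -0.08 and -0.12 without the 4. Without the 4 arrays none of the 5 pairs of Serpinf1 given here was beyond 0.12 in size. Over 31 strains, r within clades C to I ran from -0.83 to 0.84 as deposited and from -0.76 to 0.77 after place correction. On the 4 arrays the every 8th places had another median, and its part in the pairs named here was not tested. The other probes of Serpinh1 and Serpinb2 did not pass over 31 strains. The second Serpinh1 probe had -0.20 with Serpinf1 and -0.22 with Serpini2, and the first and second Serpinb2 probes had -0.38 and 0.08 with Serpinf1 and 0.06 and -0.16 with Serpinb9b.

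**Figure D5:**
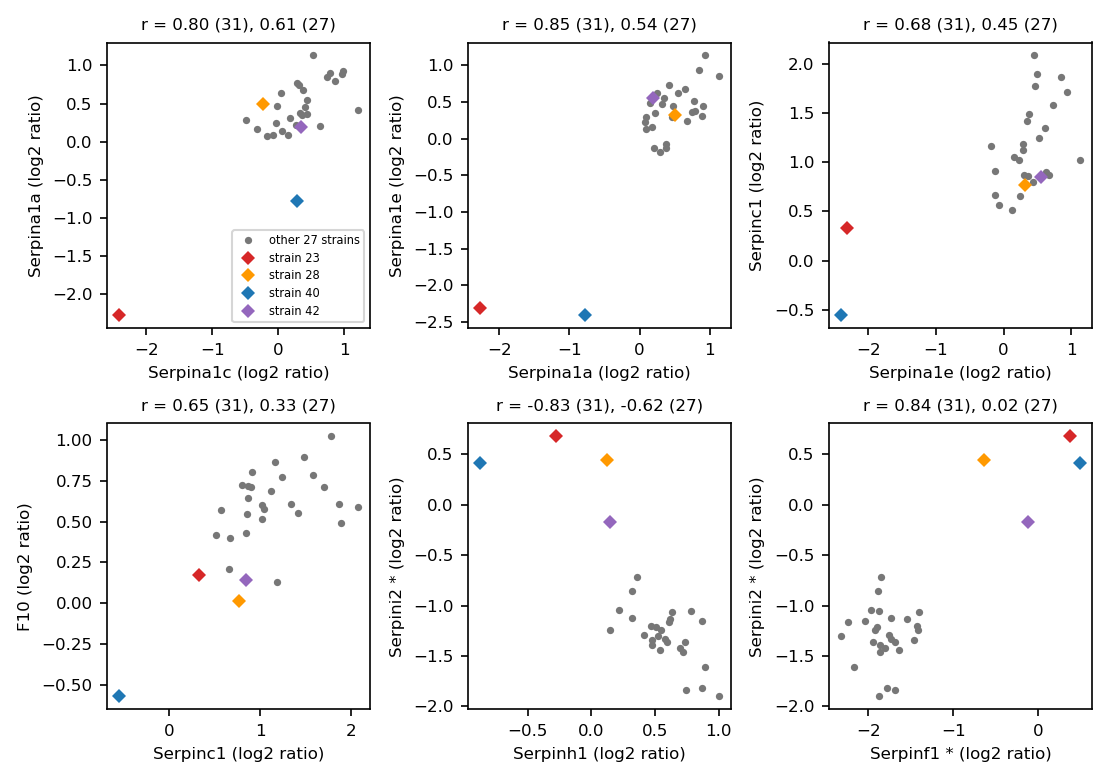
Log2 ratios of 2 probes against each other in 6 named pairs, with each point a strain, Serpinh1 by its first probe, strains 23, 28, 40 and 42 as coloured diamonds, and r over 31 and over 27 strains above each panel. Serpina1a with Serpina1c keeps r = 0.61 without the diamonds, whereas Serpinf1 with Serpini2 has 0.84 with them and 0.02 without. Asterisks mark every 8th place.

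Proteases listed as serpin targets, together with cofactors that need not be targets themselves, were measured by 28 probes for 28 genes. Of these 16 were higher, 7 lower and 5 did not pass, beside 37.4% higher and 37.6% lower of all probes. Their median panel mean was 0.19, against 0.001 for all probes. The largest of these were Pros1, the protein S cofactor of protein C, at 1.09 ± 0.09, the digestive trypsinogen Prss1 at 0.85 ± 0.07, Tmprss6, a hepatocyte membrane protease, at 0.81 ± 0.08, and the plasminogen activator Plat at -0.79 ± 0.05. Plat lies at an every 8th place and was at -0.21 after place correction. The coagulation factors that antithrombin inhibits had means of 0.72 ± 0.08 for F2, prothrombin, and 0.53 ± 0.05 for F10, and both were higher, as was Serpinc1. F11 averaged -0.05 ± 0.06 and did not pass (limma adjusted p = 0.392). F9, at an every 8th place, was lower at -0.49 ± 0.05, but its mean was 0.09 after place correction (limma adjusted p = 0.157), so no direction is given for it. Plg, the zymogen of plasmin, was lower at -0.66 ± 0.09, while its inhibitor Serpinf2 was higher.

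Serpins and their targets were then compared across strains in 21 pairs of probes matched by known biochemistry, with p-values adjusted over the 21. Serpinc1 with F10 was the single pair that passed by r over 31 strains, at 0.65 (permutation p = 0.00018, adjusted 0.00378) with rho = 0.53 (permutation p = 0.00231, adjusted 0.0296). Its r was 0.49 without strains 2 and 40 and 0.33 without the 4 (adjusted p = 0.227 by permutation). Serpinc1 with F2 had r = 0.40 (permutation p = 0.0257, adjusted 0.108) and rho = 0.52 (permutation p = 0.00282, adjusted 0.0296), with r = 0.48 without strains 2 and 40 and 0.50 without the 4. Serping1 with Klkb1, plasma prekallikrein, had r = 0.44 (permutation p = 0.0326, adjusted 0.114) and rho = 0.44 (permutation p = 0.0137, adjusted 0.0718), with 0.52 without strains 23 and 40, and passed without the 4, at 0.64 (adjusted p = 0.00399 by permutation). Serping1 with F12, the contact factor it also inhibits, had -0.14 over 31 strains and -0.49 without the 4, and neither passed. Serpinf2 with Plg had -0.03, Serpind1 with F2 0.21 and Serpina5 with Proc 0.26, and none passed. Serpinc1 had -0.08 with F9 and -0.06 with F11, and Serping1 with C1ra had 0.10, and 0.47 without the 4 (adjusted p = 0.0552 by permutation). The first Serpinh1 probe with Col1a1 had 0.50 (adjusted p = 0.0856 by permutation), and -0.31 without the 4. Serpina3n with Ctsg, cathepsin G, had -0.47 (adjusted p = 0.0674 by permutation) and passed after place correction at -0.48 (adjusted p = 0.0444 by permutation). With Elane, neutrophil elastase, the r of the Serpina1 paralogues ran from 0.11 for Serpina1f to 0.48 for Serpina1d, and none passed over 31 strains. Serpina1d with Elane passed after place correction at 0.63 (adjusted p = 0.00368 by permutation), but as deposited it had 0.17 without the 4 and 0.08 without strains 38 and 42.

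Regulators and secretion factors of the plasma serpins, 25 probes for 19 genes, were split evenly, with 10 higher, 10 lower and 5 not passed, beside 37.4% higher and 37.6% lower of all probes. The largest by panel mean were Hnf4a, a hepatocyte nuclear receptor, at -0.79 ± 0.05, the acute-phase factor Cebpb at 0.77 ± 0.07, the interleukin-6 receptor Il6ra at 0.56 ± 0.06 and the chaperone Calr at 0.55 ± 0.05. A second probe of Hnf4a was higher at 0.20 ± 0.03, so its probes disagreed, as the probes of Serpinb2 did.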

How the data were processed

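The authors deposited 1 table of normalized log ratios for the 31 arrays, read here as log2 of strain over C57BL/6J. Per the submitters' processing notes they used limma in R 2.0.0. How background and normalization were handled, the log base and the direction are not stated in the labels or the notes. The sorted deposited values differed by at most 0.000256 between arrays, so all arrays share 1 distribution, which ran from -3.84 to 3.65. Without intensities the signal over background could not be judged, and precision is limited by how many arrays there are. Of 23040 features, 1275 were empty and 21765 were tested.

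Genes were named from the platform annotation, updated by gene ID from RefSeq (GRCm38.p6), which held all 35 serpin probes. For the panel mean, an intercept was fitted to each probe with limma 3.58.1 under R 4.3.3 (eBayes, two-sided). Correlations used numpy 2.4.6 and 100000 permutations under Python 3.11.15. Tests were checked on simulated data. A marker score was the mean of a list's probes, each centred on its median. The labels give no batch.

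The members and lists were chosen with earlier results of these data known. Full values were given for the Serpina1 and Serpina3 paralogues, Serpinc1, the other liver-secreted serpins and, in each other clade, the probes with the highest and lowest mean and the largest SD. Named pairs were those within Serpina1, of probes of 1 gene, of Serpinc1 where they passed, and the 10 highest and 5 lowest r that passed. Up to 4 genes were named per list by the size of the mean. Others were named for a role, a marker list or disagreeing probes after their values were seen. Alternatives were centring, place correction, leaving out strains, limma's trend and robust options, a minimum size, names as deposited, and Spearman's rho. A limma fit with 1 probe as covariate was added later.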

Additional observations from a re-analysis of the deposited data

How the results depend on the processing

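No paired analysis was possible because the 31 strains form a single group with 1 array each. Centring each array, limma's trend and robust options and the names as deposited kept the counts of serpin probes higher (14) and lower (10) within 1.5 times, and leaving out each strain in turn gave 13 to 17 higher and 10 to 12 lower. With a minimum size of 0.2 the counts were 7 and 5. Without strains 23, 28, 40 and 42 and after place correction, 8 of the 13 liver-secreted serpins (61.5%) were higher, beside 39.2% of all probes. Place correction alone, and then without the 4 strains, turned the mean of Serpina1d to 0.40 and 0.57, of Serpinb9c to 0.11 and 0.16, of Serpinb9e to 0.30 and 0.33 and of Serpinb5 to 0.26 and 0.30.

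Counts of serpin pairs with positive and negative r (15 and 8) were 20 and 8 after place correction and 0 and 0 without the 4 strains. They were 0 and 0 without them after place correction (61 with an unadjusted p under 0.05), and 1 and 1 by Spearman's rho. With limma's covariate fit they were 30 and 16. That fit without the 4 strains gave 0 and 1, the 1 being Serpinb9e with Serpinb6a. The r of Serpinf2 with Serpinf1 turned to 0.000301 without the 4 strains and 0.0586 after place correction too. Under both changes r turned to 0.0725 for Serpinh1 with Serpinf1, 0.00262 for Serpinb2 with Serpinf1, 0.0382 for Serpinf1 with Serping1 and -0.135 for Serpinf1 with Serpini2. Target pairs with positive r numbered 2 after place correction, with 1 negative, and 2 by Spearman's rho. The mean r moved to 0.080 for all serpins, 0.071 for clade B and 0.051 for the serpins not secreted by the liver after place correction, and to 0.090 for clade A without the 4 strains and 0.091 after place correction too. The cause was not tested. A single array per strain limits all values.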
